A study of Mus musculus with 5 samples.

Results

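The genes described here carry out or switch on DNA replication. They were taken as a list of 33 genes, by their symbols in the deposited gene tables, and all 33 were found among the 31053 genes counted in each of the 5 libraries. They comprise the MCM helicase genes Mcm2, Mcm3, Mcm4, Mcm5, Mcm6 and Mcm7, the helicase loaders Cdc6 and Cdt1, and the helicase activators Cdc45 and Gins2. Genes of the replication fork are Pcna, Rfc2, Rpa2, Prim1, Pola1, Pold3, Fen1, Exo1, Ung, Clspn, Tipin and Dtl. Tyms, Rrm1, Rrm2 and Tk1 make DNA precursors, Uhrf1, Hells, Chaf1b and Slbp serve chromatin and histones, and E2f1, Ccne1 and Ccne2 are regulators of entry into S phase.

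The study asked how the first waves of follicles grow and are lost in the juvenile mouse ovary. Cells were taken from ovaries of untreated C57BL6/J mice at 2, 3, 4, 5 and 6 wk, dissociated with trypsin and sorted for live cells, and 1 library was made for each age with 10x Genomics 3′ reagents. The libraries held between 7779 and 11077 cells and between 93438618 and 144609431 unique molecular identifiers (UMIs, each counting 1 captured RNA molecule), and the median cell had between 9056 and 12424 UMIs. Since an age has no replicate, ages were compared without a test, whereas groups of cells were compared with the 5 libraries as replicates. Each level is a CPM, a gene's UMIs scaled to 1000000 UMIs of its own cells, and values in a series follow the order 2, 3, 4, 5 and 6 wk.

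Before a cell can copy its DNA, CDC6 and CDT1 load the MCM helicase onto origins in G1 phase. Cyclin E with its kinase and the E2F transcription factors then drive entry into S phase, CDC45 and the GINS complex activate the helicase, and the polymerases follow with the sliding clamp PCNA. The genes of this machinery are classic E2F targets. In the ovary, the granulosa cells of primordial follicles are quiescent, those of growing follicles divide, and the stroma around a growing follicle gives rise to its theca.

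Letters that E2F factors bind stand in many promoters of these genes, and stretches of 3 promoters are shown because each holds such letters before the start of transcription. The sequences are from RefSeq on the GRCm38.p6 build, read 5′ to 3′ on the strand of the gene, with the E2F letters in capitals. The Mcm5 stretch is at chr8:75109290-75109379 on the plus strand and ends 130 bases before the start site. The Mcm6 stretch is at chr1:128359733-128359822 on the minus strand and ends 28 bases before it, and the Dtl stretch is at chr1:191575545-191575634 on the minus strand and ends 1 base before it. The genes themselves lie at chr8:75109468-75128439 (Mcm5), chr1:128331575-128359705 (Mcm6) and chr1:191537356-191575544 (Dtl), so that all 3 stretches are upstream of the annotated gene, outside its exons and introns.
Mcm5: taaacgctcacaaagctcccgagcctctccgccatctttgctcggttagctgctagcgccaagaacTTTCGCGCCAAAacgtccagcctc
Mcm6: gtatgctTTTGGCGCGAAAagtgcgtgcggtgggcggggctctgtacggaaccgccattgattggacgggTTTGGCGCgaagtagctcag
Dtl: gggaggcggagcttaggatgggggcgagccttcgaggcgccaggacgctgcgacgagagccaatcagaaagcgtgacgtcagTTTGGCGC

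Promoters of 300 bases, from 250 before to 50 after the start site, were found for 27 of the 33 genes, some with more than 1 promoter, which made 30 promoters. The E2F letters searched were TTTCGCGC, TTTGGCGC, TTTCCCGC and TTTGCCGC on both strands, and matches of different letters may overlap, as in Mcm5. They occurred in 12 of the 30 promoters (40%), against 2.265% of all 32851 promoters of that length. The 12 genes were Cdc6, Cdt1, Clspn, Dtl, Hells, Mcm3, Mcm5, Mcm6, Mcm7, Pola1, Pold3 and Uhrf1. The CCAAT letters of NF-Y stood in 16 of the 27 genes, against 41.06% of all genes with a promoter. TTTGAA, the letters of the CHR element known from mitotic genes, stood in 3 of the 27 genes, against 20.23% of all genes. In a list of 36 genes of G2 phase and mitosis the picture was the opposite, with the E2F letters in 1 of 33 matched genes and TTTGAA in 25 of 33. These matches are a description of letters, and binding was not measured.

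Cell types were rebuilt by clustering, and 421 genes that vary with the cell cycle, all 33 replication genes among them, were kept out of the clustering. The levels below were therefore not used to form the groups, although genes that vary with them could have been. Cells still separated by the cell cycle in part, as clusters of 947 granulosa-like and 42 mesenchymal cells were led by cell-cycle genes. A further cluster of 2268 cells, left unnamed for low depth, had Ube2c, Cdk1, Cdc20, Birc5, Cks2, Ccnb2 and Tyms among its 10 leading genes. Its markers were most like those of granulosa cells, and its cells are in none of the named groups. Clusters were named from markers, and a name ending in "-like" stands for that. The granulosa marker Amhr2 ranged from 196 to 367 CPM over the libraries in granulosa-like cells and from 4.47 to 13.9 in stromal-like cells, and the stromal marker Dcn from 8.69 to 16.01 and from 1294 to 2979. Granulosa-like cells were divided into primordial-like, preantral-like, antral-like and remodeling-like cells, the last being the study's name for granulosa cells of follicles in atresia. One cluster of 947 cells met the marker count for secondary follicles, with 3 markers, but 9 of its 10 leading genes were cell-cycle genes, and it was not used as a secondary-like group of its own. The preantral-like cells join this cluster with the 4 clusters named from markers of primary follicles. The primordial-like name rests on Gatm and 4 other markers, because Krt19 stayed between 0 and 0.37 CPM and Gng13 between 0 and 2.32. Inhba separated antral-like cells (210.1 to 2299 CPM) from preantral-like cells (2.86 to 87.3), and Clu separated remodeling-like cells (949 to 1310) from antral-like cells (426 to 682). No cluster was named germ cell. Clusters left unnamed in the first clustering held 18.36% of the cells, and a further 231 granulosa-like and 1824 mesenchymal cells were left unnamed in the second clustering. Pairs of libraries shared between 18 and 35 cell barcodes, at most 0.3985% of a library.

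The summed CPM of the 33 genes was highest in growing granulosa cells. Over the 5 libraries it averaged 1769 ± 292 CPM (SD, n = 5) in antral-like cells and 1635 ± 162 in preantral-like cells. Next came Cd24a+ stromal-like cells with 1436 ± 233 and early theca-like cells, which carry the theca precursor marker Hhip, with 1243 ± 111. Blood endothelial-like cells had 1203 ± 222 CPM, hematopoietic-like cells 1132 ± 282, pericyte-like cells 1034 ± 153 and, over 4 libraries, lymphatic endothelial-like cells 1067 ± 383. Surface epithelial-like cells stood at 795 ± 140, and below them came the groups with few replication transcripts. These were the steroidogenic theca-like cells with 715 ± 358, Hoxd9+ stromal-like cells with 660 ± 137, remodeling-like cells with 654 ± 121, primordial-like cells with 611 ± 88.3 and Cxcl12+ stromal-like cells with 597 ± 108. Rete ovarii-like cells of 2 libraries had 604 ± 79.9, Col14a1+ stromal-like cells 581 ± 186 and Tagln+ smooth muscle-like cells 508 ± 116. Of the 16 pairs of neighbours in this order, 1 pair stood further apart than either SD, the pericyte-like over the surface epithelial-like cells, so the order is not one of single steps. Single libraries overlapped across that gap too. Steroidogenic theca-like cells had 1307 CPM at 2 wk, and lymphatic endothelial-like cells had 598 at 4 wk.

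**Figure D1:**
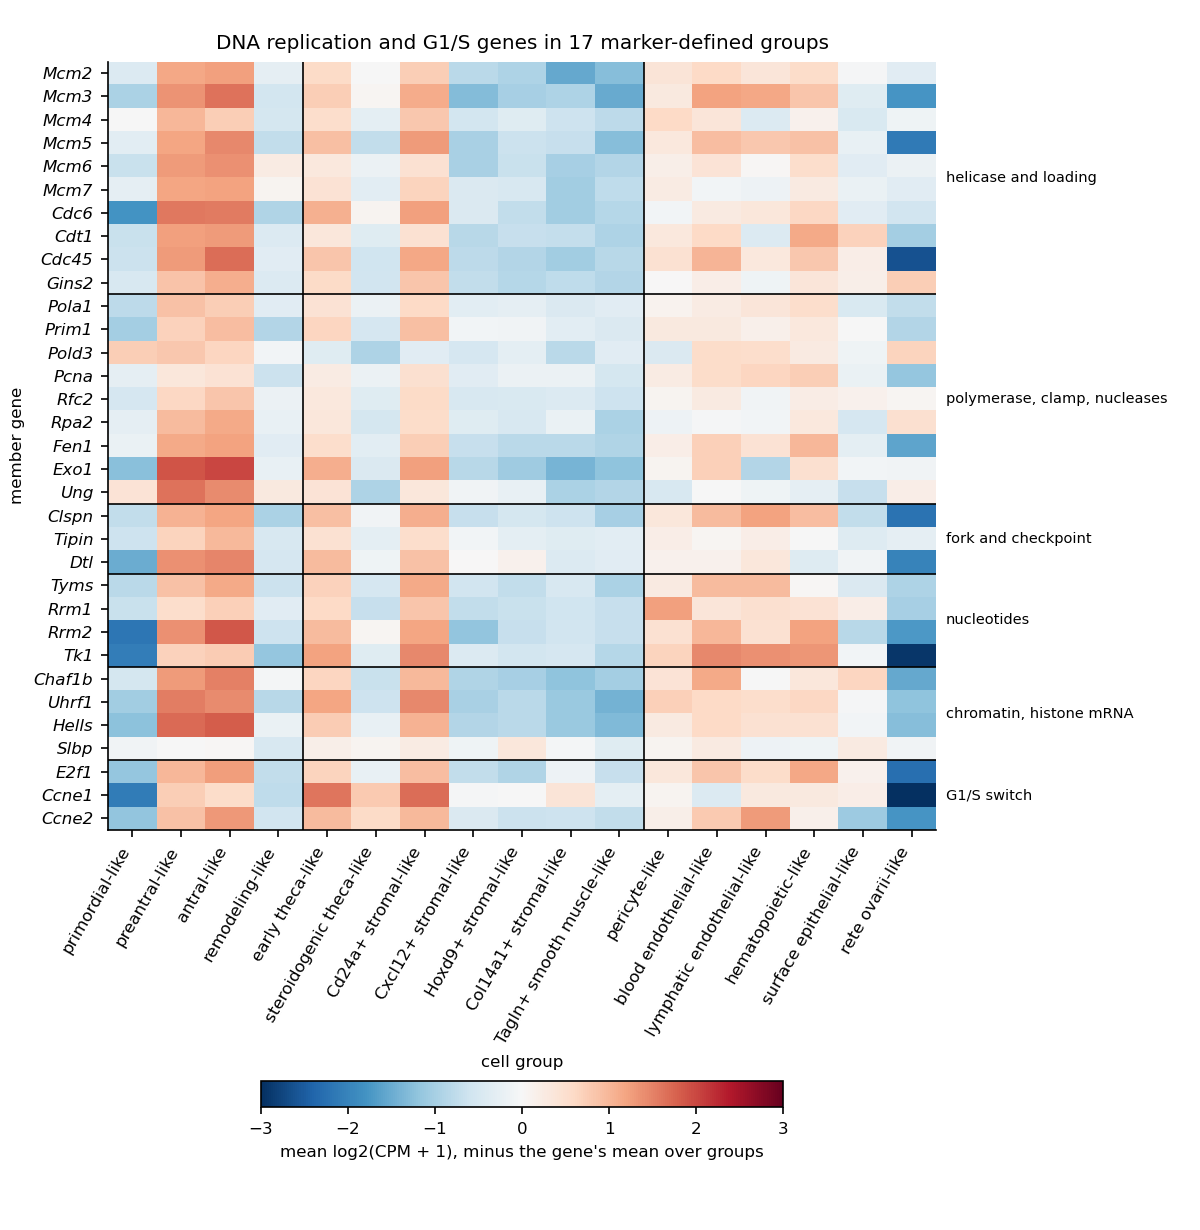
Mean level of each of the 33 genes (rows) in each named group of cells (columns), coloured by log2(CPM + 1) of the mean over libraries after subtraction of the gene's own mean over the groups, red for above and blue for below. Antral-like and preantral-like granulosa cells hold the highest mean of 20 and 6 of the genes, while the row of Slbp is nearly even, between 101 and 178 CPM.

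A single gene could peak elsewhere. The highest mean was in antral-like cells for 20 of the 33 genes and in preantral-like cells for 6, Cdc6, Mcm4, Pola1, Pold3, Uhrf1 and Ung. Ccne1 (24.5 CPM) and Tyms (69.8 CPM) peaked in Cd24a+ stromal-like cells. Pcna, the clamp that is also used in DNA repair, peaked in hematopoietic-like cells, with 80.4, 58.1, 48.9, 78.8 and 81.0 CPM, against 53.1, 60.3, 39.5, 58.8 and 68.3 in antral-like cells. The values of both groups overlap. Rrm1, the large subunit of ribonucleotide reductase, averaged 106 ± 40.6 CPM in pericyte-like cells, with 169 at 3 wk as its highest value. Tk1 was highest in blood endothelial-like cells and Clspn in lymphatic endothelial-like cells, the latter on only 67 UMIs.

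Slbp, whose protein binds the stem-loop of histone mRNAs, was the least restricted gene. Its mean ranged from 101 CPM in remodeling-like cells to 178 in Hoxd9+ stromal-like cells, and it gave 11.7% of the UMIs of the whole list, followed by Mcm7 with 6.54% and Mcm6 with 6.25%. By contrast, the mean of Cdc6 ranged from 0.463 CPM in primordial-like cells to 14.2 in preantral-like cells, and Cdc6 gave 0.69% of the UMIs. Across the 81 pairs of a group and a library, which share libraries and depth, the level of Uhrf1 followed the sum of the other 32 genes most closely (r = 0.91, on log2(CPM + 1)), with Hells and Mcm5 at the same value. The genes that followed it least were Ccne1 (r = 0.60), Slbp (r = 0.42) and Pold3 (r = 0.39). These correlations are a description across groups of cells.

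Granulosa-like cells had more replication transcripts than stromal-like cells at every age. The summed level was 1496, 1617, 1300.5, 1299.8 and 1367 CPM in granulosa-like cells and 1171, 1144, 1029, 934 and 842 in stromal-like cells. It was higher in each of the 5 libraries, on average 1.39 times (range 1.26 to 1.62). By edgeR's quasi-likelihood test on UMIs summed per library, with Benjamini-Hochberg adjustment over all 13869 genes tested and a threshold of 0.05, 15 of the 33 genes were higher in granulosa-like cells and 2 were lower. Of all genes tested, 29.9% were higher and 31.6% lower, so the share of higher calls was above the background and that of lower calls below it. The CPM ratio of the median gene was already 0.18 (log2) above equality, and the fitted changes are relative to that shift.

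Exo1, an exonuclease of mismatch repair and resection, had the largest log2 fold change, 1.06 ± 0.294 (SE, adjusted p = 0.00195, edgeR). Its levels were 15.6, 15.8, 12.3, 13.9 and 15.8 CPM in granulosa-like cells against 7.78, 6.80, 5.90, 6.19 and 5.06 in stromal-like cells, with no overlap. Ung, which removes uracil from DNA, followed with 1.001 ± 0.152 (adjusted p = 3.82e-07, edgeR), and Mcm6 with 0.997 ± 0.159 (adjusted p = 8.98e-07, edgeR). Mcm6 reached 99.6, 116, 107, 87.6 and 93.3 CPM against 57.3, 49.7, 43.6, 39.7 and 37.1. The chromatin remodeler gene Hells (log2 fold change 0.92), the loader Cdt1 (0.86) and the polymerase delta subunit Pold3 (0.79) also rose, together with Mcm2, Mcm3, Mcm7, Cdc45, Gins2, Rpa2, Fen1, Rrm2 and Chaf1b. Of these, Gins2 (adjusted p = 0.0422) and Rrm2 (0.0247) were close to the threshold and lost the call in 8 and 6 of the 16 alternatives.

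The 2 genes that went the other way were Ccne1 and Slbp. Ccne1, cyclin E1, had 11.7, 8.33, 6.63, 8.09 and 10.4 CPM in granulosa-like cells and 20.3, 20.2, 16.9, 16.6 and 7.65 in stromal-like cells. The ranges overlap only through the 6 wk library, in which the order was reversed, and the log2 fold change was -0.91 ± 0.223 (adjusted p = 0.000569, edgeR). Ccne2, cyclin E2, had a log2 fold change of 0.25 ± 0.263 and was not called (adjusted p = 0.415, edgeR). Slbp was lower in granulosa-like cells in all 5 libraries, with a log2 fold change of -0.45 ± 0.113 (adjusted p = 0.00063, edgeR). The remaining genes of the list lay between -0.56 for Tk1 (adjusted p = 0.0673) and 0.49 for Cdc6 (0.13), none of them called. Median depth was 15032 UMIs per cell in granulosa-like and 9734 in stromal-like cells, and the part of depth in these differences was not tested. The shares of cells with at least 8 of the genes at equal depth, described below, averaged 18.7 and 8.49% over the libraries.

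**Figure D2:**
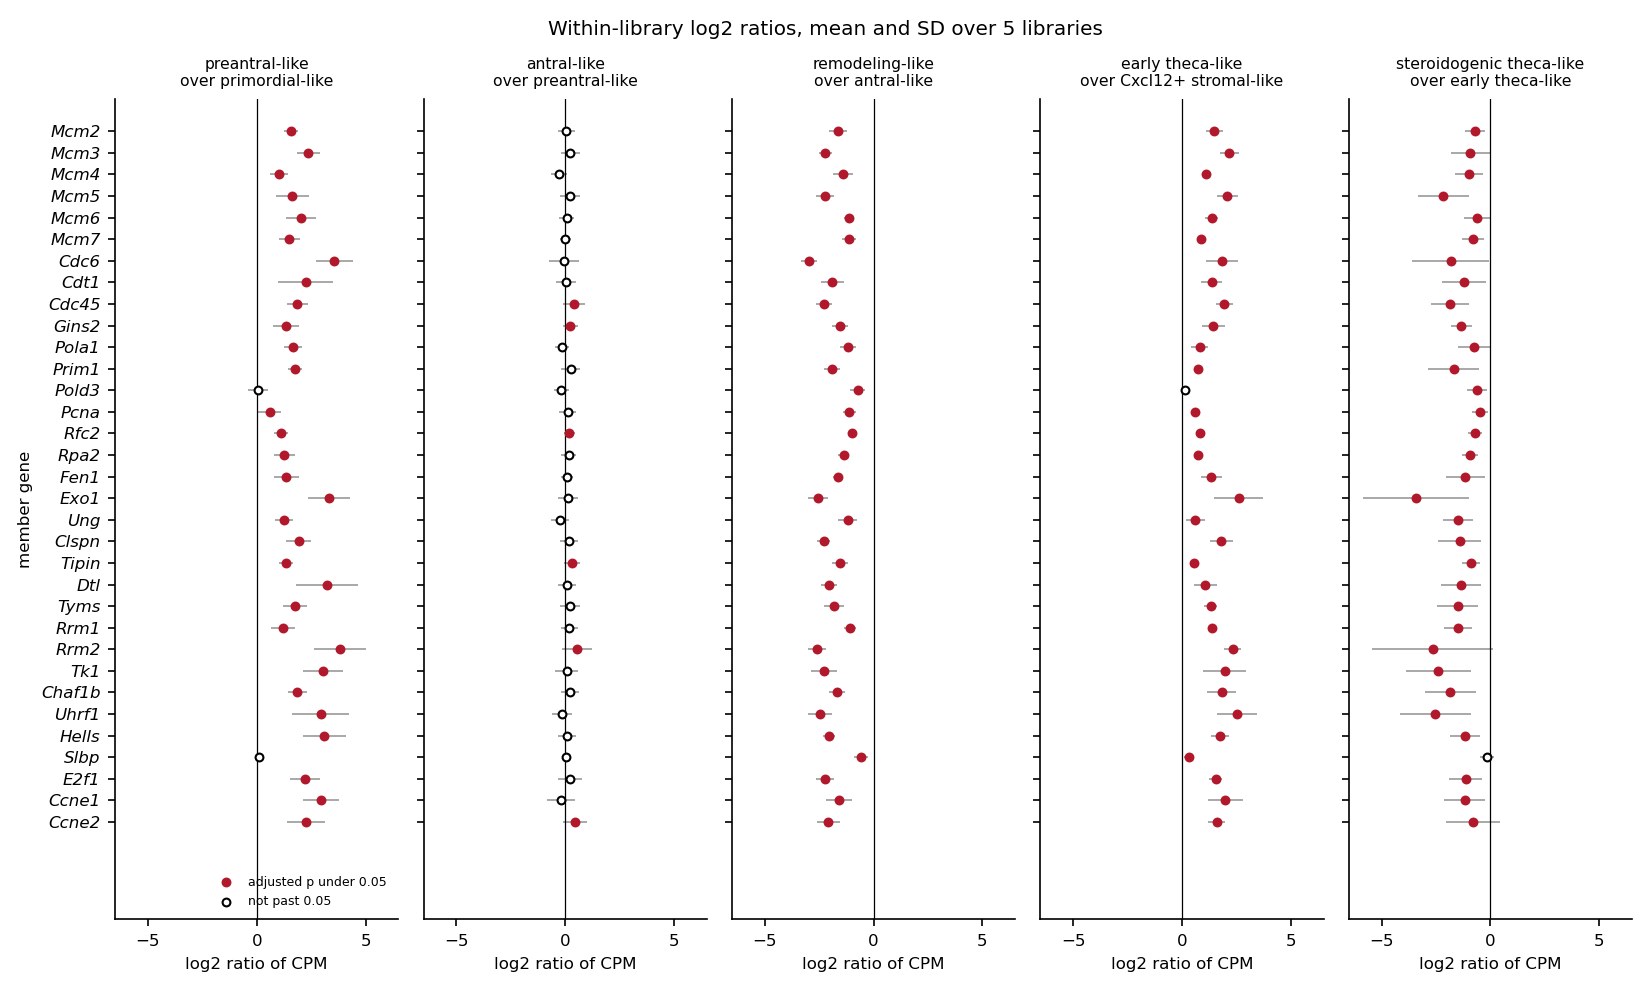
Log2 ratio of CPM between 2 groups of cells of the same library, for each of the 33 genes (rows) in 5 comparisons (panels), as the mean (points) and SD (bars) over 5 libraries. Red points passed an adjusted p of 0.05 in edgeR. All 33 genes lie left of 0 in remodeling-like over antral-like cells, and 31 are called right of 0 in preantral-like over primordial-like cells.

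Replication transcripts were far more abundant in preantral-like than in primordial-like cells. The summed level was 668, 686, 627, 613 and 462 CPM in primordial-like cells and 1554, 1399, 1819, 1683 and 1717 in preantral-like cells. The groups did not overlap, and the sum was 2.69 times higher on average (range 2.04 to 3.71 over the libraries). Of the 33 genes, 31 were higher in preantral-like cells and 0 were lower by the same test, among 24% higher and 19.3% lower of all 13402 genes tested. The median log2 fold change was 2.00 over the 33 genes and 0.07 over all genes. At an unadjusted p under 0.05 no gene of the list was lower either, since Pold3 and Slbp, the 2 genes not called, also had positive log2 fold changes, and with DESeq2 0 were lower.

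The helicase loader Cdc6 had the largest change, with 0.370, 1.95, 0, 0 and 0 CPM in primordial-like cells against 11.8, 10.1, 16.7, 14.7 and 17.7 in preantral-like cells. The primordial-like values stand on 1 UMI at 2 wk and 3 UMIs at 3 wk, so the fitted log2 fold change of 4.39 ± 0.585 (adjusted p = 9.87e-06, edgeR) depends on the prior count. Ccne1 behaved alike, with 0.739, 1.30, 0, 2.32 and 0 CPM against 12.5, 7.05, 12.5, 13.8 and 15.1 (log2 fold change 3.91 ± 0.582). Both genes act at the G1/S boundary, and in both the lowest preantral-like value was several-fold above the highest primordial-like value. Rrm2, the ribonucleotide reductase subunit made in S phase, had 5.54, 1.30, 4.16, 0 and 0 CPM against 41.0, 16.7, 33.8, 48.4 and 41.5. Tk1, the thymidine kinase of the salvage pathway, had a log2 fold change of 3.18, Exo1 of 3.15 and Dtl, which directs the destruction of CDT1, of 3.09.

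The MCM genes were detected in primordial-like cells of every library, and their changes are better supported by counts. Mcm3 rose from 20.3, 23.4, 29.1, 13.9 and 9.19 CPM to 88.6, 92.3, 122, 91.4 and 97.2 (log2 fold change 2.44 ± 0.194, adjusted p = 3.01e-08, edgeR). Mcm6 rose from 31.0, 40.2, 18.7, 37.2 and 15.3 CPM to 105, 103, 128, 109.6 and 123 (2.00 ± 0.176). The groups did not overlap for either gene. The other members of the helicase ranged from 1.25 for Mcm4 to 1.87 for Mcm2, so the 6 subunits did not change by one amount. Hells, with 15.5, 14.9, 6.25, 16.3 and 3.06 CPM against 85.0, 75.4, 92.6, 101 and 108, had the smallest adjusted p of the list (7.89e-09, edgeR). E2f1 rose from between 2.08 and 7.78 CPM to between 14.2 and 30.1 (log2 fold change 2.53 ± 0.359).

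The genes of the fork and of DNA precursors rose with them. Prim1, the primase subunit that makes the RNA primer, went from 7.39, 3.89, 10.4, 11.6 and 6.12 CPM to 25.1, 20.4, 32.2, 34.7 and 26.9 (log2 fold change 2.10 ± 0.27), and Pola1, the polymerase that extends that primer, from between 6.12 and 14.3 to between 33.2 and 41.4 (1.77 ± 0.214). Neither gene had overlapping groups. Clspn, a checkpoint and fork protein gene, had 6.28, 4.54, 6.25, 18.6 and 6.12 CPM in primordial-like cells against 29.0, 24.1, 36.0, 37.4 and 29.2 (2.26 ± 0.293). The single-strand binding gene Rpa2 changed less, from 31.4, 32.4, 31.2, 11.6 and 18.4 CPM to 53.6, 58.2, 77.6, 48.9 and 58.8 (1.27 ± 0.164), as did Rfc2 (1.20 ± 0.125) and Tipin (1.43 ± 0.186). Tyms, which makes thymidylate, had a log2 fold change of 1.90 ± 0.23 against 1.13 ± 0.185 for Rrm1, whose levels of 36.2, 33.7, 27.1, 23.2 and 18.4 CPM in primordial-like cells were well above those of its partner Rrm2. Chaf1b, a subunit of the histone chaperone CAF-1, rose from between 3.06 and 12.5 CPM to between 22.0 and 29.7 (2.21 ± 0.249).

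Pcna had the smallest called change, 0.66 ± 0.161 (adjusted p = 0.00275, edgeR). It stood at 38.1, 33.7, 27.1, 46.5 and 24.5 CPM in primordial-like cells and at 47.4, 37.0, 49.1, 59.3 and 68.3 in preantral-like cells, so the groups overlapped although every library went the same way. The 2 genes without a call were Pold3 and Slbp. Pold3 had 46.2, 52.5, 29.1, 39.5 and 39.8 CPM in primordial-like cells against 37.1, 40.3, 50.6, 41.8 and 47.7 (log2 fold change 0.10 ± 0.15, adjusted p = 0.631, edgeR). Slbp had 146, 130.4, 125, 135 and 119 CPM against 159.8, 132, 149.8, 127 and 137 (0.26 ± 0.119, adjusted p = 0.0838, edgeR). Both were thus present in primordial-like cells near their preantral-like level, in cells where Cdc6 and Ccne1 were nearly undetected. The primordial-like group is small, with 228, 167, 68, 47 and 31 cells.

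The cycle-led cluster of 947 cells is part of the preantral-like group, although cell-cycle genes were not used for clustering. In that cluster the summed level had a median of 2867 CPM over the libraries, against 572 to 1576 in the other 4 preantral-like clusters. The lowest of these, of 1069 cells, ranged from 548 to 736 CPM, which overlaps the 462 to 686 CPM of primordial-like cells. Markers of primordial follicles ranked second in it, behind those of primary follicles. Their mean level, standardized over the granulosa-like clusters, was 1.118 in it and 1.025 in the primordial-like cluster. That of the primary markers was 1.478 and 0.824. By these markers the preantral-like group may thus hold cells much like primordial-like ones, which was not tested. Without the cycle-led cluster, 30 of the 33 genes were still higher in preantral-like than in primordial-like cells, Pcna being the gene lost. The antral-like clusters were equally uneven, with medians of 918, 1423, 2221 and 2349 CPM, while the remodeling-like clusters ranged from 416 to 727.

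Preantral-like and antral-like cells were close to each other. The summed level in antral-like cells was 1653, 2284, 1589.8, 1714 and 1602 CPM, higher than in preantral-like cells in 3 of 5 libraries, on average 1.08 times (range 0.874 to 1.63). Of the 33 genes, 6 were higher in antral-like cells and 0 were lower, among 19% higher and 18.4% lower of all genes tested, so the share of the list did not stand above the background. At an unadjusted p under 0.05, and with DESeq2, 0 genes of the list were lower as well. The 6 genes were Rrm2 (log2 fold change 0.63), Ccne2 (0.53), Cdc45 (0.49), Tipin (0.40), Gins2 (0.31) and the clamp loader subunit Rfc2 (0.27). Ccne2 had 12.8, 25.9, 17.8, 16.1 and 20.7 CPM in antral-like cells against 12.3, 9.85, 16.2, 12.5 and 17.3 in preantral-like cells, higher in each library but overlapping between the groups. Mcm4 had the lowest log2 fold change of the list (-0.21 ± 0.147, adjusted p = 0.269, edgeR).

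None of these 6 calls held under every alternative. Without the 3 wk library, in which antral-like cells had their highest sum, 1 gene was called, without the 5 wk library 3, and with the cycle-led preantral-like cluster left out 27 were higher. The count thus depended on whether the cycle-led cluster was joined with the preantral-like cells, and no direction is given for the list as a whole.

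Every one of the 33 genes was lower in remodeling-like than in antral-like cells. The summed level in remodeling-like cells was 819.8, 744, 599.7, 544 and 565 CPM, between 0.318 and 0.496 times that of antral-like cells of the same library (mean 0.369 times), and the groups did not overlap. Single clusters did. The largest antral-like cluster, of 1930 cells, ranged from 659 to 1390 CPM over the libraries, with remodeling markers ranked second. Remodeling-like clusters of 1982 and 876 cells ranged from 622 to 829 and from 449 to 839. The antral-like clusters of 1351, 1175 and 986 cells lay between 1015 and 2674 CPM. All 33 genes passed the test, among 22% lower and 23.4% higher of all genes tested, each was lower in all 5 libraries, and all 33 passed under each of the 16 alternatives. The cycle-led cluster was named preantral-like as a whole, so both groups held 0 of its cells and leaving it out changed neither. Which stages its cells came from was not tested. The median log2 fold change was -1.85 for the list and 0.01 for all genes. The paper, which placed mitotic granulosa cells in clusters of their own, reported cell cycle among the terms enriched in its remodeling clusters. That result stands on other clusters and on the paper's own lists of differentially expressed genes. Whether those lists hold any of the 33 genes was not checked, and the result was not compared with the levels here.

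Cdc6 had the largest fall, from 12.8, 21.3, 11.3, 11.5 and 12.3 CPM in antral-like cells to 1.30, 2.75, 1.99, 0.991 and 1.61 in remodeling-like cells (log2 fold change -3.05 ± 0.266, adjusted p = 8.04e-08, edgeR). Rrm2 went from 48.7, 55.6, 33.7, 60.7 and 57.6 CPM to 11.7, 7.07, 7.09, 7.99 and 7.95 (-2.73 ± 0.223). Uhrf1, which keeps DNA methylation through replication, went from between 32.5 and 59.7 CPM to between 4.29 and 12.2 (-2.67 ± 0.213). In these 3 genes the highest remodeling-like library lay well under the lowest antral-like library. The S-phase regulators moved with the machinery, E2f1 from 18, 46.1, 27.4, 21.1 and 17.2 CPM to 5.18, 12.2, 4.80, 3.24 and 3.28 (-2.43 ± 0.209), Ccne2 by -2.25 and Ccne1 by -1.85.

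Of the fork genes, Cdc45 went from 11.9, 26.2, 16, 20.8 and 18.4 CPM to 2.59, 6.28, 3.31, 2.78 and 4.28 (-2.37 ± 0.209) and Clspn from between 29.5 and 43.7 CPM to between 5.42 and 9.08 (-2.31 ± 0.181). Prim1 (-2.02 ± 0.164), Fen1 (-1.69 ± 0.11), which trims Okazaki fragments, and Gins2 (-1.64 ± 0.136) fell by less. Pcna went from 53.1, 60.3, 39.5, 58.8 and 68.3 CPM to 34.3, 22.0, 17.5, 26.3 and 30.2, a log2 fold change of -1.18 ± 0.125. The groups did not overlap in any of these genes. Among the genes for DNA precursors, Tyms (-1.94 ± 0.16) and Tk1 (-2.49 ± 0.246) fell by more than Rrm1 (-1.07 ± 0.139), which kept 28.5, 30.2, 43.8, 42.7 and 31.4 CPM.

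The helicase subunits again changed by unequal amounts. Mcm5 and Mcm3 had log2 fold changes of -2.33 ± 0.173 and -2.28 ± 0.14, against -1.16 ± 0.106 for Mcm7 and -1.13 ± 0.13 for Mcm6. Mcm3 went from 101, 178, 104, 107 and 103 CPM to 28.5, 34.6, 26.3, 19.8 and 18.4. Mcm6 remained at 49.9, 55.4, 66.6, 49.4 and 53.0 CPM in remodeling-like cells, above its primordial-like range of 15.3 to 40.2. At the lower end of the list stood Rfc2 (-1.04), Pold3 (-0.77 ± 0.122) and Slbp (-0.60 ± 0.105), and Slbp still had 150.2, 124, 83.3, 73.5 and 75.9 CPM. Median depth was 13127 UMIs per cell in remodeling-like and 17057 in antral-like cells, and the shares of cells at equal depth given below also differed.

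In the mesenchyme, replication transcripts were more abundant in early theca-like cells than in Cxcl12+ stromal-like cells. The summed level was 1382, 1333, 1195, 1195 and 1110.2 CPM in early theca-like cells and 749, 647, 589.9, 524 and 472 in Cxcl12+ cells, 2.10 times higher on average (range 1.84 to 2.35) with no overlap. Of the 33 genes, 32 were higher and 0 lower, among 21.9% higher and 21.5% lower of the 12758 genes tested. With DESeq2 the counts were also 32 and 0, and Pold3, the gene not called, had a positive log2 fold change of 0.18 ± 0.138 (adjusted p = 0.304, edgeR). Hhip ranged from 155 to 232 CPM in early theca-like cells and from 26.4 to 54.2 in Cxcl12+ cells. Median depth was 14644 and 6320 UMIs per cell, and the part of depth in the CPM levels was not tested. The shares of cells at equal depth given below also differed.

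The largest changes were those of Exo1 (2.66 ± 0.443), Uhrf1 (2.53 ± 0.331), Rrm2 (2.50 ± 0.395), Mcm3 (2.24 ± 0.22) and Mcm5 (2.13 ± 0.233), as log2 fold changes. Uhrf1 had 34.8, 38.9, 36.1, 36.3 and 27.7 CPM in early theca-like cells and 11.4, 10.9, 7.13, 2.63 and 2.94 in Cxcl12+ cells. Mcm5 had 49.2, 54.8, 40.9, 37.1 and 35.3 CPM against 19.0, 15.1, 7.45, 6.83 and 6.75. In both genes the early theca-like values lay above the Cxcl12+ values at every age, and the Cxcl12+ values were lowest at 5 and 6 wk. Ccne1, which was lower in granulosa-like than in stromal-like cells, had 24.8, 26.8, 25.2, 26.5 and 12.7 CPM in early theca-like cells against 12.1, 8.31, 8.10, 3.42 and 1.84 in Cxcl12+ cells (1.97 ± 0.222, adjusted p = 3.85e-08, edgeR). Slbp had the smallest called change, 0.35 ± 0.0953 (adjusted p = 0.00332, edgeR).

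Steroidogenic theca-like cells, which express the androgen synthesis gene Cyp17a1 (129 to 3272 CPM over the libraries, against 0 to 33.8 in early theca-like cells), had fewer replication transcripts. Their summed level was 1307, 769.7, 560.3, 384 and 554 CPM, lower than that of early theca-like cells in each library, on average 0.528 times (range 0.322 to 0.946). At 2 wk the groups were nearly level, with 1307 against 1382 CPM, and the distance at the later ages was larger. The steroidogenic group joined 2 clusters, 1 with a median of 511 CPM and 1 with 694, the latter with early theca markers ranked second. The latter held 42 of the 107 cells at 2 wk and 70 of 557 at 5 wk, and the part of this mix was not tested. By the test, 32 of the 33 genes were lower and 0 were higher, among 25.9% lower and 24.8% higher of all genes tested. Slbp was the gene not called (log2 fold change -0.15 ± 0.0958, adjusted p = 0.189, edgeR), and DESeq2 gave 32 lower and 0 higher as well. Of the 33 genes, 21 were lower in every library.

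Mcm5 had 30.8, 17.8, 4.27, 3.25 and 9.66 CPM in steroidogenic theca-like cells, below early theca-like cells at each age, with a log2 fold change of -2.08 ± 0.241 (adjusted p = 2.05e-08, edgeR). Uhrf1 had 25.4, 9.07, 3.56, 1.27 and 6.58 CPM (-2.42 ± 0.343) and Exo1 10.8, 2.35, 0.356, 0.159 and 0 CPM (-2.59 ± 0.461). For these 3 genes the 2 wk library was the highest and the values at 4, 5 and 6 wk were a fraction of it. Rrm2 was higher in steroidogenic than in early theca-like cells at 2 wk, 53.8 against 34.6 CPM, and lower afterwards, with 8.73, 0, 3.57 and 3.95 against 21.2, 21.1, 31.0 and 26.3. Cdc6, Ccne1 and Mcm3 were also lower in 4 of 5 libraries. The 2 wk values rest on 107 cells.

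Clspn and Cdt1 had the same course. Clspn had 32.8, 17.1, 6.75, 5.08 and 6.14 CPM in steroidogenic theca-like cells against 32.4, 32.8, 24, 30.7 and 22.0 in early theca-like cells (-1.37 ± 0.261). Cdt1 had 20.1, 5.71, 2.84, 2.14 and 4.39 CPM against 14, 12.9, 11.2, 8.30 and 14.1 (-1.11 ± 0.271). At 2 wk both were thus slightly higher in the steroidogenic group, and at each later age they were lower. Prim1 (-1.59 ± 0.261), Chaf1b (-1.85 ± 0.289) and Rrm1 (-1.498 ± 0.154) were lower in all 5 libraries. Rrm1 had 54.8, 27.5, 21.0, 14.4 and 18.9 CPM against 79.8, 69.7, 65.9, 72.4 and 57.4.

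Cd24a+ stromal-like cells had summed levels of 1728, 1645, 1275, 1317 and 1216 CPM, above each of the other stromal-like groups in every library. They were made of 1 cluster with a median of 1644 CPM and 1 with 537, and the early theca-like cells of clusters with 974 and 1578. In Hoxd9+ stromal-like cells, 42 cells formed a cluster led by cell-cycle genes, with 2673 CPM in the 1 library that had enough of them. A high sum in a group can thus come from part of its cells, and a summed level does not tell more dividing cells from more transcripts per cell.

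**Figure D3:**
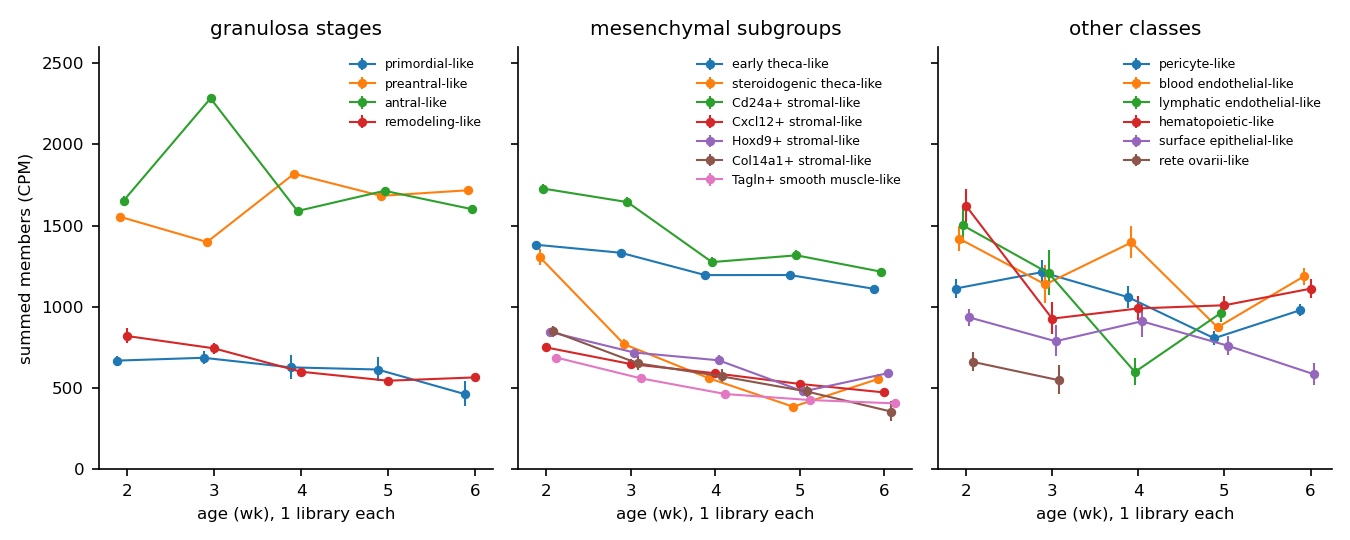
Summed CPM of the 33 genes (vertical axis) at 2, 3, 4, 5 and 6 wk (horizontal axis) in named groups of cells (lines, in 3 panels), with 1 library per age and bars of the exact 95% Poisson interval. Antral-like and preantral-like cells stay between 1399 and 2284 CPM at every age, and the remodeling-like, Cxcl12+ and steroidogenic theca-like groups are lower at 6 wk than at 2 wk.

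Across the ages the summed level was lower at 6 wk than at 2 wk in 18 of 19 groups, some of which are nested, so that cells of a class and of its subgroups are counted more than once. Intervals of these ratios are exact, conditional on the sum of both counts, at 95%, and cover counting error only. In all cells together the ratio of 6 wk to 2 wk was 0.853. In steroidogenic theca-like cells it was 0.424, but 0.7355 with cycle genes kept in the clustering and 0.6911 at a resolution of 1.4. The ratio was 0.418 in Col14a1+ cells, in Cxcl12+ cells 0.630, in remodeling-like cells 0.689 (0.650 to 0.731) and in primordial-like cells 0.692. Early theca-like cells (0.803) and antral-like cells (0.969, 0.9496 to 0.989) changed less, and preantral-like cells were the group with a ratio above 1 (1.11, 1.09 to 1.12). The remodeling-like group was made of different clusters at these ages, as its cluster with the lowest sum (a median of 416 CPM) held 0 cells at 2 wk and 338 of 1082 at 6 wk. The preantral-like ratio was 1.001 with cycle genes kept and 1.037 without the cycle-led cluster. That cluster held 209 of 2151 preantral-like cells at 2 wk and 176 of 1039 at 6 wk. Antral-like cells at 3 wk were the highest values of this group, 1.38 times those of 2 wk (1.35 to 1.41). The mix of antral-like clusters differed as well. The cluster with the highest sum (a median of 2349 CPM) held 41 of 423 cells at 2 wk and 246 of 856 at 3 wk. The next (2221 CPM) held 101 and 180. The tables of 2, 3 and 4 wk were counted with Cell Ranger 3.1.0 and the later ones with 6.0.1, so a difference between these sets of ages cannot be told apart from the software. The sums of Cxcl12+, remodeling-like and steroidogenic theca-like cells fell from 2 to 4 wk, ages that share version 3.1.0, and the cause was not tested. The remodeling-like cluster with the lowest sum held 0 cells at 2 wk and 704 of 1809 at 4 wk. Of the 2 steroidogenic theca-like clusters, the one with the higher median sum held 42 of 107 cells at 2 wk and 53 of 225 at 4 wk.

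Single genes did not follow the sum in every group. In preantral-like cells at 6 wk, the interval of the ratio to 2 wk lay above 1 for 21 of the 33 genes and below 1 for 4, against 27.2% above and 24.1% below among all 14384 genes with more than 3 UMIs at both ages. The highest ratios were those of Cdc6 (1.498), Pcna (1.44), E2f1 (1.42), Dtl (1.402) and Ccne2 (1.399), and the 4 lower genes were Slbp (0.86), Chaf1b (0.87), Mcm4 (0.87) and Tipin (0.89). The cycle-led cluster, with the highest sum, held 209 of 2151 preantral-like cells at 2 wk and 176 of 1039 at 6 wk. The ratios of single genes were not computed without it, so a change within the other cells cannot be told apart from this mix. In antral-like cells 10 genes lay above 1 and 8 below, near the shares of all genes (25.5% and 22.7%). There Ccne2 (1.61), Cdc45 (1.55) and Fen1 (1.38) had risen in level, whereas Mcm4 (0.70), Chaf1b (0.73) and Mcm2 (0.74) had fallen. Mcm4, Chaf1b, Slbp and Tipin had intervals below 1 in both growing groups. In remodeling-like cells 0 of 32 genes lay above 1 and 14 below, against 16% and 22.6% of all genes, with the lowest ratios in Ccne1 (0.32), Mcm4 (0.33) and Cdt1 (0.35). In early theca-like cells 19 genes lay below 1, against 22.1% of all genes, with Ccne1 (0.51) and Mcm4 (0.60) the lowest, and Ung (1.46) alone lay above, against 21.2% of all genes.

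To see whether the levels came from many cells or from few, each cell was thinned to 5000 UMIs and the cells with a UMI of at least 8 of the 33 genes were counted. Their share was 26.7, 41.8, 27.1, 27.6 and 24.9% of antral-like cells and 18.9, 17.7, 27.5, 24.2 and 24.5% of preantral-like cells. In primordial-like cells it was 2.27, 2.53, 4.44 and 2.17% at 2 to 5 wk, and at 6 wk 0 of 29 cells had 8 genes, with an exact binomial upper limit of 11.9%. Remodeling-like cells had 5.56, 4.89, 3.32, 2.02 and 3.32%. Free RNA in droplets can add UMIs to any cell, and its part was not measured. Tagln+ smooth muscle-like cells, the group with the lowest sum of these same genes, had 3.30, 2.26, 1.02, 0.720 and 0.314%. The primordial-like shares at 2 and 3 wk lay within the counting interval of these shares. Those at 4 and 5 wk, which stand on 2 and 1 cells, lay above its upper limits of 2.20 and 1.67%. Their own intervals, 0.543 to 15.1% and 0.055 to 11.5%, hold the Tagln+ shares of these ages, so the counts do not separate the 2 groups there.

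In early theca-like cells the share was 15.9, 14.7, 12.9, 12.1 and 11.2%, and in Cd24a+ cells 25, 23.6, 12.9, 13.4 and 10.8%. Steroidogenic theca-like cells had 10.8% at 2 wk and between 0.181 and 2.13% at the later ages. Without thinning the shares are larger, with 49.9, 72.0, 55.1, 58.3 and 53.1% in antral-like cells and 12.6, 12.3, 13.9, 19.3 and 21.1% in remodeling-like cells. Cells under 5000 UMIs were left out, between 19 and 61 antral-like cells per library, between 1 and 23 primordial-like cells and between 46 and 278 Cxcl12+ cells. The antral-like and remodeling-like shares do not overlap with or without thinning. At this depth between 2.01 and 7.68% of antral-like cells had no UMI of the list. Cells at zero were a minority in low groups as well, with 5.45 to 15.6% of primordial-like and 8.73 to 13.5% of remodeling-like cells. In Tagln+ smooth muscle-like cells they were 12.5 to 18.7%.

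**Figure D4:**
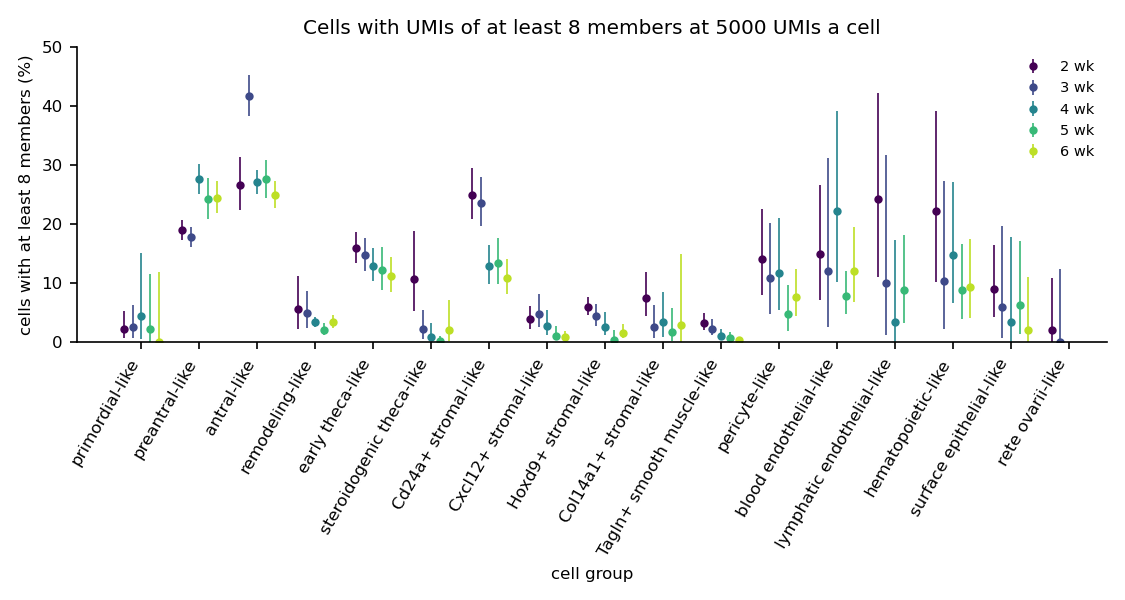
Percent of cells with a UMI of at least 8 of the 33 genes (vertical axis) after thinning each cell to 5000 UMIs, by group and age, with exact 95% binomial intervals. Antral-like and preantral-like cells lie between 17.7 and 41.8%, primordial-like and remodeling-like cells between 0 and 5.56%.

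Other genes of the same pathway were compared through a list of 55 further replication genes, among them the origin recognition genes, the remaining GINS subunits and polymerase subunits. Of these, 47 were higher and 2 lower in preantral-like over primordial-like cells, among 24% higher and 19.3% lower of all genes tested. Orc1 (log2 fold change 4.57), Pclaf (3.46), a partner of PCNA, and Gins1 (3.03) were the highest, while Pold4 (-1.72) and Rrm2b (-0.99), the ribonucleotide reductase subunit of resting cells, were the 2 lower genes. In remodeling-like over antral-like cells 52 were lower and 1 higher, among 22% lower and 23.4% higher of all genes tested. The lowest were E2f8 (-3.01), Mcm10 (-2.88) and Pclaf (-2.78), and Rrm2b (0.41) was the higher gene. Rrm2 and Rrm2b thus went in opposite directions in both comparisons. In early theca-like over Cxcl12+ cells 46 were higher and 0 lower, against 21.9% and 21.5% of all genes tested. For steroidogenic over early theca-like cells 43 were lower and 1 higher, against 25.9% and 24.8%. Between antral-like and preantral-like cells 8 were higher and 0 lower, against 19% and 18.4%, so the share of higher calls was not above that of all genes. The 36 genes of G2 phase and mitosis were all higher in preantral-like than in primordial-like cells and in early theca-like than in Cxcl12+ cells. All of them were lower in remodeling-like than in antral-like cells. The shares of all genes in these comparisons are those given above.

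The D cyclins, CDK inhibitors and other regulators of G1 phase, a list of 16 genes, did not move as one. In preantral-like over primordial-like cells 1 was higher and 5 were lower of 14 tested, against 24% and 19.3% of all genes. The lowest were the inhibitor genes Cdkn1a (log2 fold change -2.51) and Cdkn1b (-1.73) and the cyclin gene Ccnd3 (-1.73). In remodeling-like over antral-like cells 3 were higher and 3 lower of 14 tested, near the 23.4% and 22% of all genes. The log2 fold changes ranged from -2.13 to 1.49, with Cdkn1c (1.49) and Cdkn1a (1.11) among the higher genes. In early theca-like over Cxcl12+ cells 4 were higher and 3 lower of 16 tested, near the 21.9% and 21.5% of all genes. Ccnd1 had the highest log2 fold change there (2.75) and Cdkn1c the lowest (-1.54). Across the 81 pairs of group and library, the sum of the 33 genes had a correlation of 0.967 with the sum of the other replication genes, 0.864 with that of the G2 and mitosis genes and 0.28 with that of the G1 regulators.

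Outside these lists, the genes whose level was most like the sum of the 33 genes over the 81 pairs were Lmnb1 (r = 0.90), which codes for a lamin, Ezh2 (0.89), the histone methyltransferase of the Polycomb complex, Dnajc9 (0.89), a histone chaperone, Diaph3 (0.88) and Smc2 (0.87), a condensin subunit. Lmnb1 ranged from 9.98 to 194 CPM over the pairs.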

How the data were processed

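The authors made 1 library per age from trypsin-dissociated, sorted live ovarian cells, sequenced them on a NextSeq 500 and ran Cell Ranger on the mm10 (GRCm38) mouse genome to count the UMIs of each gene in each cell. The deposited matrices hold these raw counts, whole numbers without normalization, for the barcodes that Cell Ranger kept. The submitters' processing notes name Cell Ranger 3.1.0 and Seurat 4.1.0, and the matrix headers give Cell Ranger 3.1.0 for 2, 3 and 4 wk and 6.0.1 for 5 and 6 wk. Nothing states whether the ovaries of several mice were pooled in a library. With library as a block, p-values rest on how differences between groups vary over the 5 libraries, which differ in age. That variation was estimated over all groups fitted together.

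All deposited cells were used. Scrublet in scanpy 1.11.5 called between 2.08 and 5.01% of a library doublets, which were kept except in an alternative. Libraries were integrated and clustered in Seurat 5.3.0 (R 4.3.3) with 2000 variable genes, 30 dimensions, 20 neighbours and a resolution of 1, without 421 cell-cycle genes. These were the gene lists used here and genes correlated above 0.3 with the replication lists or the G2 and mitosis list. Markers used for naming were not left out for such a correlation. Granulosa-like and mesenchymal cells were clustered again. A name needed 3 markers, each with a UMI in at least 10% of the cells and at least 1.5 times the median cluster. Clusters stayed unnamed with at least 50% doublets, over 90% of cells from 1 library, under 33.3% of the library's median UMIs, or more markers of another type than of their own among their 10 leading genes. These limits, and the preantral-like group with its 2 comparisons in place of the planned secondary-like ones, were chosen once the clusters were known.

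Counts were summed per library and group with at least 20 cells and tested in edgeR 4.0.16 (quasi-likelihood, TMM, filterByExpr, library as a block), with Benjamini-Hochberg adjustment over all genes tested. All 33 genes passed the filter in each comparison. The SE of a log2 fold change is not an output of edgeR. It was derived as the absolute fold change over the square root of the test's F statistic, and is approximate. The test was tried on simulated data with genes of known change. DESeq2 1.42.0 was an alternative, and scipy 1.17.1, numpy 2.4.6 and pandas 2.3.3 in Python 3.11.15 gave the intervals, levels and shares. The sum of the genes was compared between cell groups within a library. Reads of near-identical copies of a gene cannot be told apart from the counts. The 33 genes, the other lists and the markers were chosen with earlier results of these data known. Besides the 33 genes, the text names, for each other list, genes with the highest and lowest fold among those called, and the genes most like the sum. Counting intervals are at 95% and cover counting error only. Age ratios of single genes needed more than 3 UMIs at both ages.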

Additional observations from a re-analysis of the deposited data

Results flagged for a closer look

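The summed level of the 33 genes moved in opposite directions with age in 2 granulosa groups. In preantral-like cells the 6 wk library had 1.11 times the CPM of the 2 wk library, and in remodeling-like cells 0.689 times. The first ratio was 1.001 with cycle genes kept in the clustering and 1.037 without the cycle-led cluster. At 2 wk 0 remodeling-like cells were in the cluster with the lowest sum (416 CPM), which held 338 of the 1082 at 6 wk. With 1 library per age the difference between these ratios was not tested, and the part of the Cell Ranger version, which changes between 4 and 5 wk, cannot be told apart from age.

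Cells of clusters that could not be named, which enter no comparison between groups of cells, carried the genes at 1298 CPM over all libraries, just under the lowest granulosa-like library. Per library they had 1445, 1434, 1045, 1504 and 1250 CPM. Their median depth was 1913 UMIs per cell. However, 48357 of their 66846 UMIs of the list came from 1 cluster of 1858 cells with a median depth of 18126. That cluster held mostly called doublets and had 1338 CPM. The low-depth clusters of 3028, 2268 and 1641 cells had 1003, 1617 and 972 CPM. The cluster of 2268 cells, with cell-cycle genes among its leading genes, reached 2036 CPM in the 6 wk library. It held 239, 256, 385, 787 and 601 cells at 2, 3, 4, 5 and 6 wk, so it was left out of the named groups unevenly by age. What this did to the sums of those groups was not tested.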

How the results depend on the processing

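The 6 counts of genes called were recomputed under 16 alternatives each, and 88 of the 96 values stayed within 1.5 times the count reported. The other 8 concern antral-like over preantral-like cells, where 6 genes were called. Without the library block, which pairs the groups by library, 0 were called, with stricter cell filters 0, at a resolution of 1.4 1, without the cycle-led cluster 27, with cycle genes kept in the clustering 23 (21 higher and 2 lower) and without integration 20. Leaving out 1 library gave between 1 (without 3 wk) and 7 calls, 3 without 5 wk. No call was kept under every alternative in this comparison, against 33 of 33 in remodeling-like over antral-like cells, 25 of 31 in preantral-like over primordial-like, 28 of 32 in early theca-like over Cxcl12+, 25 of 32 in steroidogenic over early theca-like and 11 of 17 in granulosa-like over stromal-like cells. Without the library block the last 3 comparisons named had 28, 25 and 12 calls, so the pairing by library changed no count there by over 1.5 times. The 6 over 2 wk ratio of the sum reversed in antral-like cells at a resolution of 0.6 (1.045) and in early theca-like cells without integration (1.007), and the cause was not tested. In granulosa-like cells this ratio moved from 0.914 to 0.8914 without integration, 0.9282 at a resolution of 1.4, 0.8797 with stricter cells and 0.9656 without the cycle-led cluster, and in stromal-like cells from 0.719 to 0.6992 with cycle genes kept, 0.8074 without integration and 0.7088 at a resolution of 0.6. The share of cells with at least 8 genes depends on its settings by construction. In granulosa-like cells it was 18.7%, with at least 5 genes 31.95%, with at least 12 genes 9.398%, at 3000 UMIs 10.26%, without thinning 42.25% and without the cycle-led cluster 16.23%. In stromal-like cells it was 8.49%, and 15.68%, 5.007%, 4.679% and 17.06% under the first 4 of these settings. The E2F letters TTTCGCGC and TTTGGCGC alone were in 9 of 27 promoter-matched genes. The planned comparisons with secondary-like cells were not run, because the 1 cluster with enough secondary markers was led by cell-cycle genes. Small groups limit the depth, most of all primordial-like cells at 6 wk with 31 cells.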
